A study of Rattus norvegicus with 12 samples.

Results

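Protein phosphatase 4 (PP4) was followed in rat whole blood through 3 of its subunit genes, Ppp4r2, Ppp4c and Ppp4r1. They were taken by gene symbol, 3 of the 17337 genes in the count files, and 2 of the 3 passed the filter on low counts that left 2781 genes for testing. Ppp4r2 was selected on its measured counts, which were lower after restraint stress; it was the 1 gene called in the contrast of restraint averaged over strains. Ppp4c and Ppp4r1 were added as its partners. Every restraint contrast of these 3 genes is therefore given as a description without a test, whereas strain contrasts played no part in the choice and were tested.

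PP4 is a serine/threonine phosphatase of the PPP family and a close relative of PP2A. Its catalytic subunit, PP4c, works in complexes with regulatory subunits: R2 (gene Ppp4r2) joins PP4c and an R3 subunit in a nuclear complex that removes phosphate from the DNA damage histone mark gamma-H2AX and from replication protein A, while R1 (gene Ppp4r1) forms a separate complex with PP4c. In blood the enzyme is known from lymphocytes, where PP4c is needed for T and B cell development and R1 restrains NF-kappaB signalling in T cells.

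The study asked how restraint affects a remembered fear context and the blood transcriptome in rats that differ in stress reactivity. RNA came from PAXgene blood of male F344 (Fischer 344) and WKY (Wistar Kyoto) rats, inbred strains, aged 70 to 90 days at the first conditioning. All 4 groups went through contextual fear conditioning, 4 weeks in the home cage, a second conditioning after the stress period, and decapitation 24 hours after it. The groups were F344 without stress (NS, left in the home cage), F344 after chronic restraint stress (CRS, 2 hours a day in a soft cone for 2 weeks), WKY without stress and WKY after CRS, each with 3 libraries. No group was spared conditioning, so every value below belongs to animals that were conditioned before and after the stress period. The labels do not say that each library is a separate rat, and p-values then measure only the spread between libraries, which may be technical.

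Depth limited every value. Genes received 1691956 to 3846263 counts per library, but the 3 most abundant features took 88.9% to 94.6% of them and left 90796 to 419789 for all others. Unstressed F344 libraries held 90796 to 220499 such counts and stressed F344 libraries 281942 to 419789, so depth did not overlap between these 2 groups; in WKY the ranges were 170507 to 347841 and 232721 to 319116. Reads ambiguous between features took 78.3% to 83.6% of all counts. Levels are given in CPM, the usual per-library scale for counts, after TMM scaling to a common composition, and 1 count was worth 0.202 to 1.14 CPM. The tissue label matched its markers: 9 globin features summed to 20150 to 41774 CPM and red cell precursor genes to 659 to 1467 CPM, whereas 8 brain and muscle genes reached at most 14.6 CPM. These globin sums are far too small to make up the share of the 3 most abundant features, which are not named here. In bulk blood, fewer cells of a type and less RNA per cell cannot be told apart.

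Ppp4r2 is the member that carries the restraint difference, so the stretch just upstream of its annotated start is shown. RefSeq places these 250 bases on the plus strand of build GRCr8 at chr4:135010669-135010918, immediately before the first transcribed base; the count files were made on build rn6, and no coordinate was carried between the builds. Capitals mark the only match to an NRF1 motif, the site of a nuclear respiratory factor.

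Ppp4r2 promoter: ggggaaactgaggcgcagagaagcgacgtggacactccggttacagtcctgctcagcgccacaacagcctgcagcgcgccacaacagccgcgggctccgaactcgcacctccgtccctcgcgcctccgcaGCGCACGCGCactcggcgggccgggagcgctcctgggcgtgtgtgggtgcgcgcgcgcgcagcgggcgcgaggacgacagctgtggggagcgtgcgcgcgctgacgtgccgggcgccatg

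The stretch is a CpG-rich promoter. Its GC content was 73.6% and it held 39 CpG dinucleotides, against medians of 51.2% and 5 over 33469 rat promoter windows of the same length, 98.6% of which held fewer. The NRF1 motif (GCGC, any base, T, then GCGC) matched once over both strands, 120 bases before the start on the minus strand, and was found in 3.75% of all windows. The palindrome of the glucocorticoid receptor, the hormone receptor activated in stress, was searched as GNACA and TGTNC spaced by NNN and had no match (0.373% of windows). The short CREB site TGACG matched once at 19 bases (18.2%), with no full site TGACGTCA (1.59%), and the E-box CANNTG matched once at 43 bases (65.5%). ETS (CCGGAAG, 7.27%), SP1 (GGGCGG, 30.5%) and YY1 (CCATNTT, 13.8%) letters had no match. Both strands were searched, the TGACG letters lie within TGACGTCA wherever that occurs, and the motifs were chosen after the sequence had been seen. A match is letters in a window and no measurement of binding, and no match says only that these letters are not in this window. Ppp4c has its own promoter entry, which is not shown because its counts were too few to bear on it.

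Ppp4r2 encodes the regulatory subunit R2. In unstressed F344 rats its raw counts were 39, 25 and 14 in replicates 1, 2 and 3, or 10.8, 15.2 and 16.0 CPM. In stressed F344 rats the counts were 18, 13 and 30, or 3.63, 4.44 and 6.09 CPM. Every stressed F344 library lay below every unstressed one, the highest at 6.09 CPM against the lowest at 10.8 CPM. In unstressed WKY rats the counts were 32, 33 and 52, or 7.37, 10.8 and 20.1 CPM. In stressed WKY rats they were 21, 11 and 19, or 5.35, 4.80 and 6.24 CPM. The WKY groups did not overlap either, although only the gap between 6.24 and 7.37 CPM separated them, and unstressed WKY replicate 3 was the highest library of the whole series for this gene. The share of all genes so separated within a single strain was not counted.

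**Figure D1:**
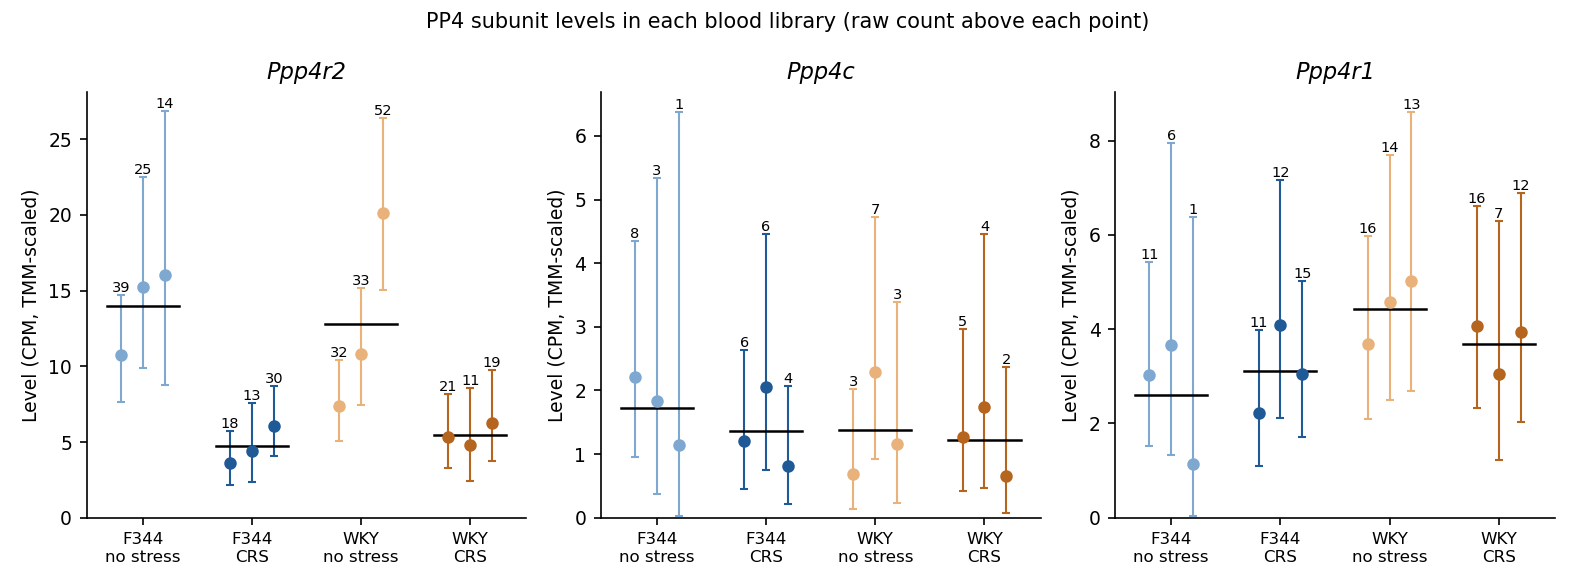
Level of Ppp4r2, Ppp4c and Ppp4r1 in each library (y axes, TMM-scaled CPM, 1 panel and 1 scale per gene) by group (x axes, replicates 1 to 3 from left to right), with the group mean as a bar, the exact 95% counting interval of the library as a line and the raw count above it. The 6 stressed libraries of Ppp4r2 lie between 3.63 and 6.24 CPM, below the 6 unstressed ones, while the groups of Ppp4c and Ppp4r1 overlap between treatments.

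The group means of Ppp4r2 fell in the order unstressed F344 at 14.0 ± 2.84 CPM (SD, n = 3 in each group), unstressed WKY at 12.8 ± 6.60, stressed WKY at 5.46 ± 0.729 and stressed F344 at 4.72 ± 1.25. The unstressed groups overlapped in range, as did the stressed groups, and the break lay between unstressed and stressed libraries. As log2 fold changes of the fit over all genes, CRS against NS was -1.50 (SE 0.381, 95% interval -2.27 to -0.73) in F344 and -1.18 (SE 0.370, interval -1.93 to -0.43) in WKY. Averaged over strains it was -1.34 (SE 0.265, interval -1.88 to -0.80), a stressed level 0.395 times the unstressed one. Without unstressed WKY replicate 3 the WKY value moved to -0.70. Without unstressed F344 replicates 2 and 3, the 2 shallowest of that group, the F344 value was -1.11 and the average -1.13, with the remaining library assumed to vary like the other groups.

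These values chose the gene and are read against the background of all genes only as a description. In the restraint contrast averaged over strains 1 of 2781 genes passed the threshold of 0.05 on edgeR's Benjamini-Hochberg adjusted p, or 0.036% of genes, and that gene was Ppp4r2 (197 genes had an unadjusted p under 0.05, and DESeq2 called 3). Ppp4r2 was no longer called in 7 of 12 leave-outs of a single library (unstressed F344 replicate 2 or 3, stressed F344 replicate 1 or 2, unstressed WKY replicate 3, or stressed WKY replicate 1 or 2), without both shallowest unstressed F344 libraries, without scaling factors or with no low count filter. In F344 alone 0 genes passed (0%, 130 unadjusted, 0 by DESeq2), and in WKY alone 0 (0%, 161 unadjusted, 0 by DESeq2). Stressed libraries lay below unstressed ones without overlap in both strains for 13 of 2781 genes, or 0.467%. All 6 stressed libraries lay below all 6 unstressed ones for 5 genes, or 0.18%: Ppp4r2, Apba3, Clec4f, Slc12a8 and Tmed2. Of the 4 PP4 subunits tested, Ppp4r2 was the 1 on either list. Genes of the wider lists below were also separated within a single strain. Ppp2r5a, Ppp6r2, Ppp1r12a and Trim28 were lower without overlap after CRS in F344, and Ppp2r5b in WKY. In WKY, Ppp1cb was higher without overlap.

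The spread of Ppp4r2 between libraries can be set beside its counting error. In unstressed F344 the coefficient of variation was 20.3%, against 21.4% that counting error alone would give at these counts, and in stressed F344 it was 26.5% against 23.5%. In unstressed WKY it was 51.7% against 16.4%, so the 3 unstressed WKY libraries spread beyond counting error. In stressed WKY it was 13.3% against 25.2%.

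Depth moved with the level of Ppp4r2. Over the 12 libraries log2 CPM of Ppp4r2 and log2 counts outside the 3 most abundant features had a Pearson correlation of -0.75, a description over libraries that also differ in treatment. Among unstressed libraries of either strain the level was higher the shallower the library, from 10.8 CPM at 220499 counts to 16.0 CPM at 90796 in F344 and from 7.37 CPM at 347841 to 20.1 CPM at 170507 in WKY. Stressed libraries showed no such order, with 3.63 CPM at 345197 counts and 6.09 CPM at 419789 in F344. Pairs of libraries close in depth were picked after their values were seen. Across strains, unstressed WKY replicate 1 had 7.37 CPM at 347841 counts against 3.63 CPM in stressed F344 replicate 1 at 345197. Within WKY its gap was smaller, with 5.35 CPM at 319116 counts in stressed replicate 1, the nearest stressed WKY library in depth. Unstressed WKY replicate 2 had 10.8 CPM at 221592 counts against 4.80 CPM in stressed WKY replicate 2 at 232721. These pairs come from the values that chose the gene. In F344 every stressed library was deeper than every unstressed one, so depth and treatment cannot be told apart there. The part of depth in the difference was not tested.

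Other scalings kept stressed libraries below unstressed ones within each strain. They describe the same difference that chose Ppp4r2 and add no support to it. The share of other genes separated under these scalings was not counted. In CPM without TMM factors Ppp4r2 ran from 8.27 to 15.9 in unstressed and 4.16 to 7.80 in stressed F344, and from 10.2 to 19.0 and 3.92 to 6.24 in WKY. Per 100000 counts outside the 3 most abundant features it ran from 12.8 to 17.7 and 4.61 to 7.15 in F344, and from 9.20 to 30.5 and 4.73 to 6.58 in WKY. Without scaling factors the fitted F344 change shrank to -0.94, in a contrast whose median over all genes moved to 0.50 from 0.01, which put Ppp4r2 -1.44 from the median. In WKY the unscaled value was -1.35 with a median of -0.22, or -1.13 from it.

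Blood cell markers were measured beside Ppp4r2, and 0 passed the threshold with restraint averaged over strains. All 7 tested of 13 listed platelet markers had positive values in that contrast (median log2 0.66). Their summed level ran from 41.2 to 67.0 CPM in unstressed and 80.6 to 94.2 CPM in stressed F344, and from 55.7 to 116 and 100 to 167 CPM in WKY, with the defining marker Gp1bb at 0 in all libraries. Monocyte markers summed to 53.8 to 67.6 and 78.9 to 84.6 CPM in F344 and to 112 to 130 and 116 to 163 CPM in WKY (3 of 3 tested positive, median 0.28). T cell sums ran from 42.6 to 56.5 and 39.9 to 50.5 CPM in F344 and from 31.1 to 37.5 and 27.5 to 39.0 CPM in WKY, which overlapped in both strains (8 tested, median 0.02). Medians of the other lists were -0.13 for red cell precursors (7 tested), -0.11 for neutrophils (4) and 0.06 for B cells (4). Natural killer cells were left with 1 tested marker, Prf1 (log2 -0.34). The part of cell composition in the Ppp4r2 result was not tested.

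Between strains Ppp4r2 showed no difference that passed. WKY against F344 without stress was log2 -0.11 (SE 0.360, interval -0.84 to 0.62, edgeR adjusted p = 0.961). After CRS it was 0.21 (SE 0.392, interval -0.58 to 1.00, edgeR adjusted p = 0.903), and averaged over treatments 0.05 (SE 0.264, interval -0.49 to 0.58, edgeR adjusted p = 0.962). The sign of each of these turned under at least 1 other setting. The restraint response of WKY minus that of F344 was 0.32 (SE 0.531, interval -0.75 to 1.40, edgeR adjusted p = 0.993). In that interaction contrast 0 of 2781 genes passed (0%, 106 unadjusted, 0 by DESeq2).

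**Figure D2:**
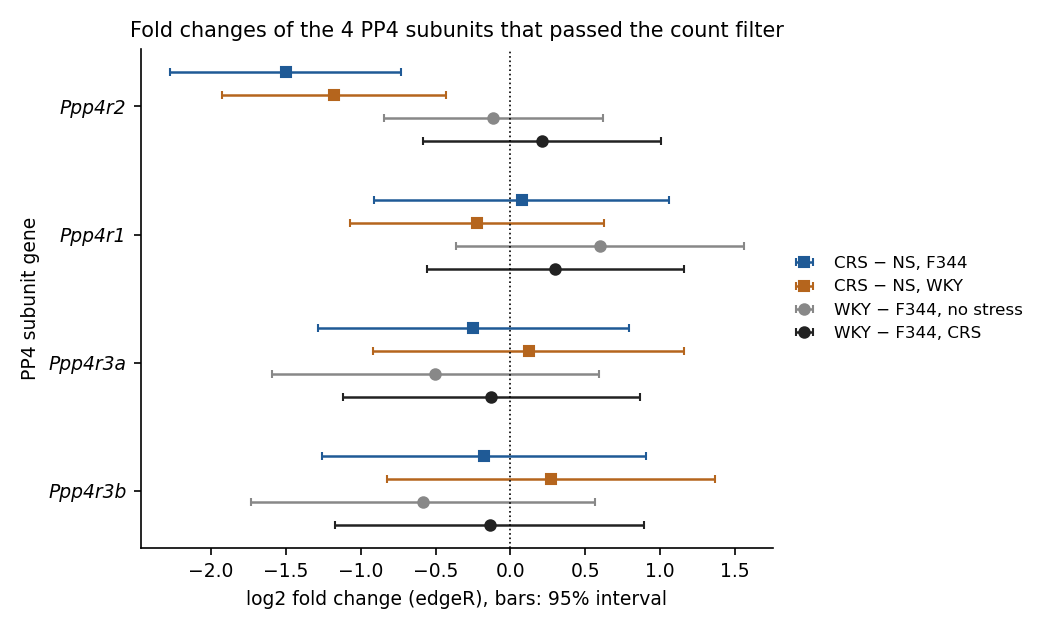
Log2 fold changes of the 4 PP4 subunit genes that passed the count filter (x axis, edgeR, bars are 95% intervals) for CRS against NS in each strain and WKY against F344 under each treatment. The 2 restraint intervals of Ppp4r2, at -1.50 and -1.18, lie wholly below 0, and all other intervals cross it; the restraint values of Ppp4r2 chose the gene.

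Ppp4c encodes the catalytic subunit, and it was measured too thinly for the count model. Its counts were 8, 3 and 1 in unstressed F344, 6, 6 and 4 in stressed F344, 3, 7 and 3 in unstressed WKY and 5, 4 and 2 in stressed WKY, 52 in all. As CPM these were 2.21, 1.83 and 1.14, then 1.21, 2.05 and 0.812 in F344, and 0.691, 2.29 and 1.16, then 1.27, 1.74 and 0.657 in WKY. The groups overlapped throughout. Means were 1.73 ± 0.538 CPM in unstressed F344, 1.38 ± 0.824 in unstressed WKY, 1.36 ± 0.631 in stressed F344 and 1.23 ± 0.545 in stressed WKY (SD, n = 3 each), an order in which no neighbours differed beyond their spread. Mean log2 CPM differed by -0.27 after CRS in F344 and by -0.08 in WKY. A fit without the low count filter, over 15012 genes, put the averaged restraint change at -0.18 (SE 0.516). A change in Ppp4c could thus be measured only coarsely at this depth. WKY minus F344 was -0.19 log2 units in mean CPM (two-sided exact permutation of strain within treatment, p = 0.455, adjusted 0.682 over the 3 members). In the GRCr8 annotation Ppp4c shares 378 bases with Tbx6, a T-box factor gene with 13 counts over all libraries; whether counting used strand is not given in the sources used here, so reads from the shared bases may be missing or misassigned.

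Ppp4r1 encodes R1, the scaffold-like subunit of the other PP4c complex. Its counts were 11, 6 and 1 in unstressed F344 and 11, 12 and 15 in stressed F344, or 3.03, 3.65 and 1.14 CPM and 2.22, 4.10 and 3.04 CPM. In unstressed WKY the counts were 16, 14 and 13, and in stressed WKY 16, 7 and 12, or 3.68, 4.59 and 5.03 CPM and 4.08, 3.05 and 3.94 CPM. Stressed and unstressed libraries overlapped in both strains, and the lowest value rested on a single count in the shallowest library. The fitted restraint change was log2 0.08 in F344 (SE 0.485, interval -0.91 to 1.06), -0.22 in WKY (SE 0.417, interval -1.07 to 0.62) and -0.07 averaged (SE 0.319, interval -0.72 to 0.57).

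Ppp4r1 stood highest in unstressed WKY at 4.43 ± 0.687 CPM, then stressed WKY at 3.69 ± 0.556, stressed F344 at 3.12 ± 0.940 and unstressed F344 at 2.61 ± 1.31 (SD, n = 3 each). Neighbours in this order overlapped. WKY against F344 was log2 0.60 without stress (SE 0.473, edgeR adjusted p = 0.783), 0.30 after CRS (SE 0.423, edgeR adjusted p = 0.866) and 0.45 averaged (SE 0.318, interval -0.19 to 1.09, edgeR adjusted p = 0.569). In mean log2 CPM the strains differed by 0.48 (two-sided exact permutation within treatment, p = 0.055, adjusted 0.165 over the 3 members), where the smallest p the design allows is 0.005. The strain difference of Ppp4r1 thus did not pass by either test. Its restraint response did not differ between strains by the interaction term (log2 -0.30, SE 0.639, edgeR adjusted p = 0.993).

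Gene lengths were not used, so levels are not compared between subunits; only ratios of 1 gene to another across libraries are. The count ratio of Ppp4r2 to the other 5 PP4 subunits measured (Ppp4c, Ppp4r1, Ppp4r3a, Ppp4r3b and Ppp4r4, summed) needs no library scaling. It was 0.736, 1.47 and 1.40 in unstressed F344 and 0.419, 0.317 and 0.545 in stressed F344. In WKY it was 0.711, 0.868 and 1.86 without stress and 0.382, 0.611 and 0.576 after CRS. Each stressed library lay below each unstressed library, the nearest pair being 0.611 and 0.711. On the log2 scale with a pseudocount of 0.5 the difference was -1.43 in F344 and -1.01 in WKY. The strains differed by 0.08 (two-sided exact permutation, p = 0.775). Ppp4r2, the numerator, was chosen for its lower counts after restraint, so the ratio describes that same difference and adds no support to it. The denominator was picked after the data were seen, and the share of other genes separated in such a ratio was not counted.

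**Figure D3:**
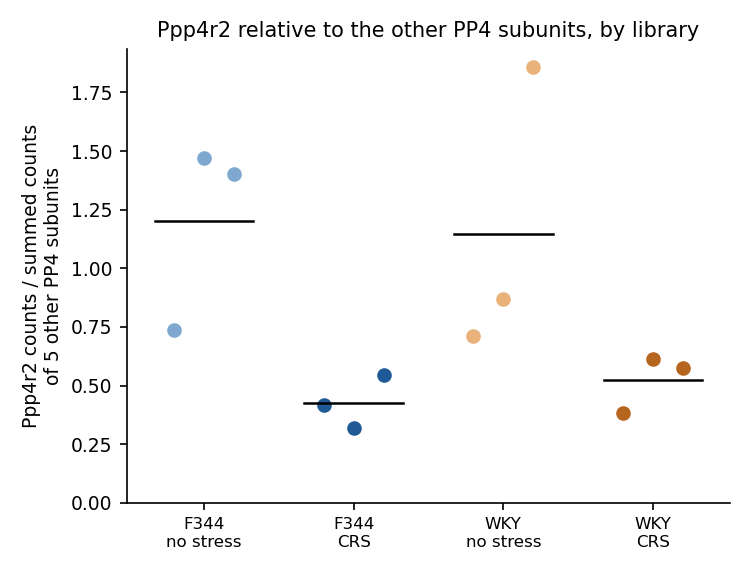
Ratio of Ppp4r2 counts to the summed counts of 5 other PP4 subunit genes (y axis, no unit) in each library, by group (x axis, replicates 1 to 3 from left to right), with the group mean as a bar. The 6 stressed libraries lie between 0.317 and 0.611, and the 6 unstressed libraries between 0.711 and 1.86. The restraint values of Ppp4r2 chose the gene.

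Set against its catalytic partner alone, Ppp4r2 was less sharply divided. The ratio of Ppp4r2 to Ppp4c counts was 4.88, 8.33 and 14 in unstressed F344, 3, 2.17 and 7.5 in stressed F344, 10.7, 4.71 and 17.3 in unstressed WKY and 4.2, 2.75 and 9.5 in stressed WKY. These ranges overlapped in both strains. From summed counts the ratio was 6.5 and 3.81 in unstressed and stressed F344 and 9 and 4.64 in WKY. The log2 difference after CRS was -1.01 in F344 and -0.999 in WKY, and WKY minus F344 was 0.31 (two-sided exact permutation, p = 0.47). Adjusted over the 2 ratios, both strain p-values were 0.775.

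The R3 subunits, which complete the nuclear complex with PP4c and R2, showed no restraint change that passed. In F344, Ppp4r3a averaged 3.81 ± 1.19 CPM without stress and 3.23 ± 0.185 CPM after CRS, and in WKY 2.69 ± 0.625 and 2.78 ± 2.13 CPM (SD, n = 3). Its averaged restraint change was log2 -0.06 (SE 0.364, interval -0.80 to 0.68, edgeR adjusted p = 0.991). Ppp4r3b stood at 3.70 ± 1.62 and 3.39 ± 1.37 CPM in F344 and 2.48 ± 1.04 and 2.90 ± 2.07 CPM in WKY, with an averaged change of 0.05 (SE 0.377, interval -0.72 to 0.81). Strain differences averaged -0.32 for Ppp4r3a (edgeR adjusted p = 0.768) and -0.36 for Ppp4r3b (0.734), neither of which passed. Ppp4r4, a further regulatory subunit, had 10 counts in all and was at 0 in 5 libraries. Over the 12 libraries log2 CPM of Ppp4r2 correlated with Ppp4r1 at Pearson's r = -0.01, with Ppp4c at 0.13, with Ppp4r3a at 0.21 and with Ppp4r3b at -0.06. At counts this low such weak values are no finding.

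The wider PP4 setting was described through 7 lists, with 78 genes listed, 70 in the files and 25 tested besides the 3 members. With restraint averaged over strains, edgeR called 0 of the 25, against 0.036% of all genes (1 had an unadjusted p under 0.05, and DESeq2 called 0). Their changes were positive in 8 and negative in 17, with a median of log2 -0.15 against 0.00 over all genes tested. PP2A, the related phosphatase, ranged from its scaffold Ppp2r1a at 0.07 to the B56-type subunit Ppp2r5b at -0.45 among 6 tested subunits. Its catalytic subunit Ppp2ca changed by log2 -0.09 (SE 0.433), a value that did not pass; Ppp2cb (18 counts) and the PP6 catalytic subunit Ppp6c (16 counts) lay below the filter. PP6 subunits ran from Ankrd52 at 0.43 to Ppp6r2 at -0.24 (5 tested). Other PPP phosphatases ran from the PP1 catalytic subunit Ppp1cc at 0.29 to the myosin phosphatase subunit Ppp1r12a at -0.76 (SE 0.275, edgeR adjusted p = 0.495; 6 tested). Among PP4 substrates and partners the range was from the kinase gene Map4k1 at 0.29 to the corepressor gene Trim28 at -0.26 (4 tested). The assembly factor Ptpa, filed as Ppp2r4, stood at -0.16 and the DNA damage kinase Atm at -0.33, each the 1 tested member of its list. The substrates most tied to the R2 complex were too thinly counted to test, with 23 counts over all libraries for the histone gene H2afx and 37 for the replication protein gene Rpa2.

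Between strains the same lists held 2 genes past the threshold. Averaged over treatments, 1 of 25 was higher and 1 lower in WKY, against 3.74% of all genes (59 higher, 45 lower, 410 unadjusted, 75 by DESeq2); 0 of the 2 tested members were among them. Without stress 1 of 25 passed against 0.683% of genes (19 by edgeR, 259 unadjusted, 21 by DESeq2), and after CRS 1 of 25 against 1.29% (36 by edgeR, 307 unadjusted, 35 by DESeq2). The median of the 25 genes averaged over treatments was 0.05, against -0.01 over all genes. Shares from so few genes are within 1 or 2 genes of the background.

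Supt5h, which encodes the transcription elongation factor SPT5, a PP4 substrate, was the gene higher in WKY. It stood at 5.52, 6.70 and 8.01 CPM in unstressed and 6.06, 4.78 and 6.49 CPM in stressed F344. In WKY it stood at 22.6, 20.3 and 11.6 CPM without stress and 12.7, 20.5 and 16.1 CPM after CRS. Every WKY library lay above every F344 library, and the share of all genes with strains so separated was not counted. The averaged difference was log2 1.49 (SE 0.246, edgeR adjusted p = 0.000116), and it passed under all 23 alternatives, with a highest adjusted p of 0.0218 without scaling factors. Within treatments it was 1.51 without stress (SE 0.364, edgeR adjusted p = 0.0329) and 1.47 after CRS (SE 0.331, edgeR adjusted p = 0.0113). Both of these calls were fragile. The call without stress ended when unstressed F344 replicate 1 (edgeR adjusted p = 0.101), 2 (0.122) or 3 (0.0823), stressed F344 replicate 1 (0.0508), or unstressed WKY replicate 1 (0.158) or 2 (0.126) was left out. It also ended without both shallowest unstressed F344 libraries (0.317), without scaling factors (0.179), in a fit of the compared groups alone (0.0817) and with limma-voom (0.0670), whose p-values are adjusted like those of edgeR. The call after CRS ended without stressed F344 replicate 1 (edgeR adjusted p = 0.0660), 2 (0.103) or 3 (0.0532) or stressed WKY replicate 2 (0.0663), and also without scaling factors (0.626) or with no low count filter (0.0689). Its averaged restraint change was -0.15 (edgeR adjusted p = 0.968).

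Ppp6r2, a regulatory subunit gene of the related phosphatase PP6, was the gene lower in WKY. It stood at 9.65, 10.4 and 12.6 CPM in unstressed and 6.86, 8.19 and 5.07 CPM in stressed F344, against 3.45, 3.60 and 5.42 CPM and 4.84, 5.67 and 3.61 CPM in WKY. Strains did not overlap without stress, a separation whose share over all genes was not counted, and they overlapped after CRS between 5.07 and 5.67 CPM. The averaged difference was log2 -0.93 (SE 0.259, edgeR adjusted p = 0.0364). The call ended in 12 of 23 alternatives, with DESeq2 (adjusted p = 0.0711) among them. It ended without unstressed F344 replicate 2 (edgeR adjusted p = 0.0675) or 3 (0.0867), stressed F344 replicate 1 (0.0830) or 2 (0.125), unstressed WKY replicate 1 (0.107) or 2 (0.0997), or stressed WKY replicate 1 (0.0683) or 3 (0.0936). The highest adjusted p, 0.455, came without scaling factors. Without stress the difference was -1.36 (edgeR adjusted p = 0.0804) and after CRS -0.50 (0.652), and neither passed. Some cell markers also differed between strains averaged over treatments, where edgeR called 3.74% of all genes. It called 3 of 7 platelet and 2 of 3 monocyte markers higher in WKY and 1 of 8 T cell markers lower. DESeq2 called 2, 2 and 0 of these. The T cell marker Cd4 went the other way (log2 0.47). Among red cell precursor (7 tested), neutrophil (4), B cell (4) and natural killer (1) markers edgeR called 0. Platelet sums ran from 41.2 to 94.2 CPM in F344 and from 55.7 to 167 CPM in WKY, and monocyte sums from 53.8 to 84.6 and 112 to 163 CPM. The part of cell composition in the Supt5h and Ppp6r2 results was not tested.

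The genes most like Ppp4r2 over the 12 libraries were named by Pearson correlation of log2 CPM among 1086 genes averaging at least 5 CPM. They were the zinc finger gene Zc3h11a (r = 0.863), Ppp1r12a (0.846), the ubiquitin ligase adaptor gene Ddb1 (0.844), the cyclin-dependent kinase gene Cdk13 (0.816) and Crebrf (0.800). The least alike were the neuropeptide Y gene Npy (-0.879), the G protein subunit gene Gnai2 (-0.867) and the actin gene Actb (-0.838). All points share the libraries and their depth, and extremes over many genes are large by selection. In F344, Zc3h11a averaged 11.4 ± 1.12 CPM without stress and 8.09 ± 0.719 CPM after CRS, and in WKY 10.3 ± 1.94 and 7.76 ± 0.412 CPM. Npy went the other way, at 31.2 ± 18.8 and 76.4 ± 12.9 CPM in F344 and 31.5 ± 10.8 and 66.3 ± 25.8 CPM in WKY. The averaged restraint values were log2 -0.45 for Zc3h11a, -0.76 for Ppp1r12a, -0.54 for Ddb1, -0.56 for Cdk13, -0.76 for Crebrf, 1.13 for Npy, 0.32 for Gnai2 and 0.43 for Actb. None of these 8 genes passed edgeR's threshold in that contrast. Npy came nearest (edgeR adjusted p = 0.0646) and passed with DESeq2 (adjusted p = 0.0181). All 8 were picked by likeness, or its opposite, to Ppp4r2, which was chosen for its restraint difference. Their restraint values and p-values therefore follow in part from that choice and add no support to it.

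**Figure D4:**
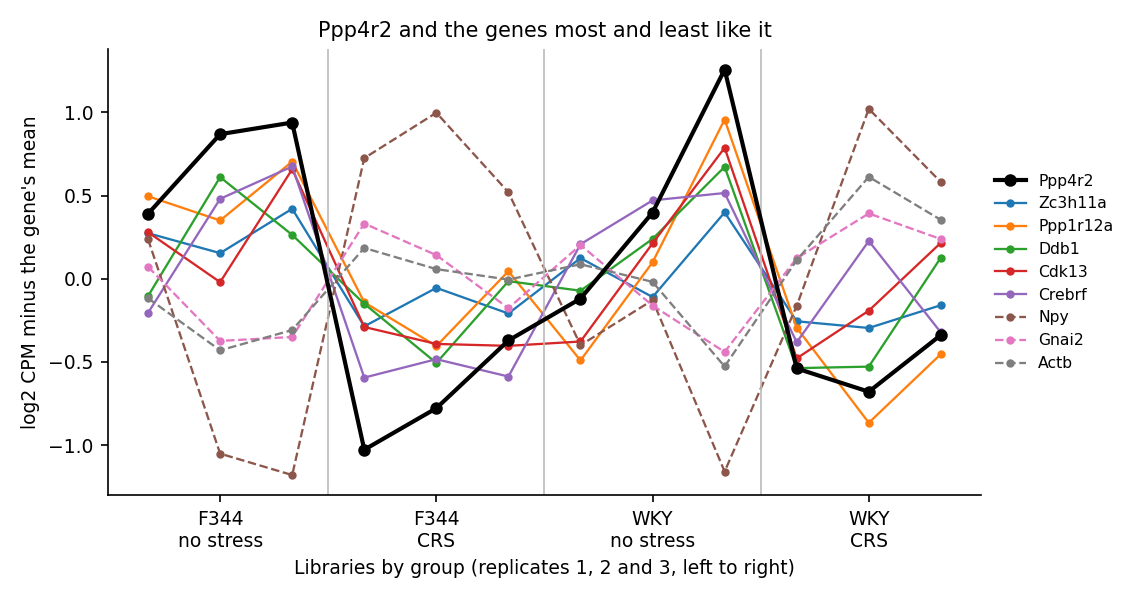
Log2 CPM of Ppp4r2 (black) and of the 5 genes most like it (solid) and 3 least like it (dashed), each minus its own mean over 12 libraries (y axis, log2 units), by library (x axis, replicates 1 to 3 within each group); lines join points of a gene and mean no order of replicates. Npy, at r = -0.879, is high where Ppp4r2 is low, and Zc3h11a, at r = 0.863, moves with it over a smaller range.

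Next to Ppp4r2 in the RefSeq table, among genes in the files, lie Shq1 (18 counts) and Pdzrn3 (6 counts), both too thinly counted to follow, and no gene overlaps Ppp4r2 there. Beside Ppp4c, Ypel3 changed by log2 0.00 and the glycolytic gene Aldoa by 0.16 with restraint averaged over strains. Neither passed (edgeR adjusted p = 0.996 for Ypel3 and 0.965 for Aldoa). Rab31, beside Ppp4r1, lay below the filter with 65 counts. The pseudogenes Ppp4r1-ps1 and Ppp4r3c-ps1 of the annotation were not among the features counted.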

How the data were processed

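The deposited files hold whole-number read counts per gene for 12 whole blood libraries, not normalised by the authors, and groups come from the sample titles. Build rn6, Cufflinks 2.2.1, TopHat2 2.1.0 and cutadapt 1.14 appear without roles in the submitters' processing notes; libraries followed standard Ion Proton protocols per the labels. Which program, annotation and strand setting produced the counts is not given in the sources used here. In each file 5 rows that name no gene, 80.9% to 86.6% of counts (ambiguous reads alone 78.3% to 83.6%), were left out.

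Counts were fitted with edgeR 4.0.16 (R 4.3.3): filterByExpr with a minimum count of 10, TMM scaling, glmQLFit over 4 group means of all 12 libraries, glmQLFTest, and Benjamini-Hochberg adjustment over 2781 genes at 0.05. CPM are TMM-scaled, log2 CPM carry a prior count of 2, and SEs derive from the fold change and F statistic. Intervals are 95% and, for single libraries, cover counting error only. Strain was also compared by exact permutation within treatment (smallest p 0.005). The procedure was tested on simulated data. Alternatives were DESeq2 1.42.0, limma-voom (limma 3.58.1) with sample quality weights, other scalings and filters, an additive model, fits of the compared groups alone, a replicate block, and leaving out libraries.

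The members and lists were chosen with earlier results of these data known. Named genes are the members, tested PP4 subunits, the catalytic subunits Ppp2ca, Ppp2cb and Ppp6c, and chromosomal neighbours. List members past the threshold, or else the extreme one in each direction, are also named. So are the 5 genes most and 3 least like Ppp4r2 among those averaging at least 5 CPM. Others were named after their values were seen. These are genes whose 6 stressed libraries lay below all unstressed ones, list genes separated within a single strain, Cd4, and the substrates H2afx and Rpa2. RefSeq tables of GRCr8 hold 14821 of 17337 symbols and gave neighbours and the promoter sequence. Not every chromosomal neighbour is reported here.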

Additional observations from a re-analysis of the deposited data

How the results depend on the processing

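For the members and their ratios, 354 of 375 recomputed values over 18 results were counted as unchanged by a loose rule. Tested strain contrasts had to keep their direction and their side of the threshold, whatever their size, and 0 of them crossed it. No reported strain contrast of the members was called, so staying uncalled says little about closeness. Untested restraint values had to move by less than the spread between libraries. The restraint call that chose Ppp4r2 did not always hold. Averaged over strains it was lost in 7 of 12 leave-outs and 3 of 11 other alternatives. In F344 alone Ppp4r2 was not called, and of 23 alternatives only limma-voom called it. That contrast also served to choose the gene, so the call is no support. The averaged restraint change of Ppp4r2 ran from -1.47 to -1.09. Without scaling factors the F344 change was -0.94 for Ppp4r2 and 0.52 for Ppp4r1, and strain differences after CRS turned to -0.18 and -0.062; the unstressed strain difference of Ppp4r2 turned to 0.23 and its difference in response to -0.41. These scaling shifts go with all-gene medians of 0.50 (F344), -0.39 (strain after CRS), 0.31 (strain without stress) and -0.75 (difference in response). With no low count filter the unstressed strain difference of Ppp4r2 was 0.13 and its difference in response -0.029, and without both shallowest unstressed F344 libraries 0.25 and -0.048. Its averaged strain difference was -0.058 with limma-voom. Leaving out 1 library at a time gave -1.45 to -0.70 for restraint in WKY, -0.56 to 0.19 for strain without stress, -0.17 to 0.21 for the averaged strain difference, and -0.12 to 0.22 for the strain difference of its ratio to 5 other subunits. None of the turned values was called, and their cause was not tested.

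Genes called for restraint averaged over strains numbered 1 as reported, 0 without scaling factors or without both shallowest unstressed F344 libraries, 6 with no filter, 3 with DESeq2, 2 with limma-voom, 2 with the additive model and 0 to 5 over the single leave-outs. Replicate numbers were shared between groups, and whether they pair the libraries is not settled. Deviations from group means correlated at -0.09 to 0.20 (median 0.03) over 18 pairs with the same number. Over the 36 other pairs the correlation was -0.17 to 0.13 (median -0.01). Of 12 libraries, 8 correlated best with their own number, at most a hint of weak pairing from the data only. The chance level of that count was not computed, and libraries share pairs. The replicate block gave -1.35 for restraint averaged over strains in Ppp4r2 and called 2 genes in place of 1. The strain difference of the ratios was not recomputed with the replicate block, and their restraint values under it only repeat the reported ones. Ppp4c was fitted with no low count filter alone, Ppp4r1 did not pass the stricter filter, and the additive model gives no difference in response. Depth limits Ppp4c, Ppp4r4, Ppp2cb and Ppp6c, with at most 52 counts each.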
